A study of Nothobranchius furzeri with 3 samples.

Results

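The genes described here are the machinery that senses unfolded protein in the endoplasmic reticulum (ER), carries misfolded protein out of it for degradation, and feeds new protein into it, measured in the basal layer of the fin epidermis of the African turquoise killifish Nothobranchius furzeri. Of 57 gene symbols of this machinery, 53 were matched in the count table by symbol, ignoring case and allowing a final a, b or l, and they gave 57 genes of 22954 in all. The extra 4 genes are second copies or paralogs (ATF6B and second entries for HERPUD2, DNAJB9 and SEC61A1). The symbols ppp1r15a, derl3, ero1a and sec11c had no match by this rule.

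Fish of the GRZ strain formed 3 groups. Aged (Tm) fish (3 libraries) were aged fish kept in water with tunicamycin at 1 µg/mL. The labels give the exposure as one night and the methods as a full day. Tunicamycin blocks N-glycosylation, so that unfolded protein builds up in the ER lumen. Aged fish (4 libraries) and young fish (4 libraries) were kept in DMSO, the solvent. The study calls the replicates of its figures biological. Whether those of these libraries are separate fish or sections is not given in the sources used here, so the p-values measure the spread between these libraries. The study gives ages for young and aged fish of its other experiments but does not restate them for these libraries. RNA was taken by photo-isolation chemistry (PIC), in which reverse transcription primers are caged and UV light is shone only on the region of interest, here p63-positive cells of the epidermal basal layer. Each library was counted in unique molecular identifiers (UMIs), and the labels give 1 library name and 1 set of reused sample barcodes per condition, so a library preparation and its condition cannot be told apart.

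In the unfolded protein response (UPR), 3 sensors span the ER membrane. IRE1 (genes ern1 and ern2) splices the mRNA of the transcription factor Xbp1, PERK (eif2ak3) phosphorylates a translation initiation factor and so favours Atf4, and Atf6 is released from the membrane by site-1 and site-2 proteases (mbtps1 and mbtps2). Their targets include ER-associated degradation (ERAD), in which Derlins and the Sel1l and Hrd1 (syvn1) ligase complex move misfolded proteins to the cytosol, where the ATPase Vcp extracts them. On the entry side, the signal recognition particle (SRP) brings nascent chains to the Sec61 channel, the translocon-associated protein complex (TRAP, ssr1 to ssr4) assists it, and signal peptidase cuts off the signal sequence.

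Total counts were 319223 to 705538 per aged (Tm) library, 37655 to 265509 per aged library and 35366 to 298033 per young library, so that 1 count was worth 1.42 to 28.3 CPM (counts per 1000000 counts of the library). The 3 libraries with fewer than 60000 counts were aged replicates 1 and 3 and young replicate 3, and main results are also given without them. Only 22 of the 57 genes had enough counts to be tested, and only 8 of these 22 passed when the filter was rerun on aged and young libraries alone. That rerun is stricter, since its smallest group has 4 libraries rather than 3. Genes can thus have entered the test through high counts in aged (Tm) libraries, and counts of calls over tested genes are descriptions. Failing the rerun does not by itself show such entry: ERN1, ern2 and mbtps1 failed it with lower mean CPM in aged (Tm) than in aged libraries. Genes were called at an adjusted p below 0.1 in edgeR's quasi-likelihood test with Benjamini-Hochberg adjustment over all 3963 genes tested. The SE beside each edgeR log2 fold change was calculated back from that test. It is the absolute log2 fold change divided by the square root of the F statistic, and is unreliable for fold changes near 0. Levels are given in CPM of the library total, whereas fold changes also use trimmed mean (TMM) factors, which were 0.616 to 1.05 in aged (Tm), 0.829 to 1.87 in aged and 0.752 to 1.23 in young libraries. Overlap or separation of groups in CPM can therefore differ from that with TMM factors, which was not examined. The median log2 fold change over all genes, aged (Tm) over aged, was −0.03 with TMM factors and −0.58 with library totals alone.

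Some markers of the sampled tissue and of others moved with the groups, and others overlapped. Of 8 basal keratinocyte symbols 5 were matched (7 genes, all detected), and tp63 itself, which encodes p63, was at 1251 to 1673 CPM in aged (Tm), 319 to 1381 CPM in aged and 424 to 1544 CPM in young libraries. The basal keratinocyte sum was 13469 to 14407 CPM in aged (Tm), 25434 to 32931 CPM in aged and 22481 to 59125 CPM in young libraries. Its largest part in each library was the keratin gene krt5, at 6119 to 11049 CPM in aged (Tm), 16335 to 32187 CPM in aged and 14532 to 57541 CPM in young libraries. The other keratin gene, krt15, was at 741 to 3906 CPM in aged (Tm), 106 to 7531 CPM in aged and 1018 to 6316 CPM in young libraries. The integrin genes of the list went both ways. ITGA6 was at 156, 103 and 568 CPM in aged (Tm), against 79.7, 56.5, 77.9 and 38.8 CPM in aged libraries, and itgb4 at 1300, 332 and 1429 CPM in aged (Tm), against 53.1, 365, 175 and 416 CPM in aged libraries. Lower in aged (Tm) were itga6l, at 2.88, 0 and 15.6 CPM, against 106, 33.9, 136 and 33.3 CPM in aged libraries, and ITGA6A, at 8.65, 12.5 and 15.6 CPM, against 79.7, 22.6, 117 and 61 CPM. For skeletal muscle (11 of 15 symbols, 15 genes, none at 0 throughout) the sum was 4596 to 7221 CPM in aged (Tm), 5680 to 23317 CPM in aged and 23142 to 90087 CPM in young libraries. For receptor, phototransduction and synaptic genes that are scarce in epidermis (30 of 31 symbols, 49 genes, none at 0 throughout) it was 210 to 458 CPM in aged (Tm), 591 to 2682 CPM in aged and 487 to 1499 CPM in young libraries. For fibroblasts (6 of 7 symbols, 7 genes) it was 280 to 1358 CPM in aged (Tm), 546 to 2723 CPM in aged and 7097 to 13586 CPM in young libraries. Sums overlapped among all groups for suprabasal keratinocytes (2 of 5 symbols), immune cells (6 of 6) and erythrocytes (3 of 5). In the order aged (Tm), aged and young, suprabasal sums were 156 to 513, 97.4 to 338 and 198 to 802 CPM. Immune sums were 455 to 717, 319 to 1032 and 452 to 917 CPM. Erythrocyte sums were 20.2 to 125, 39 to 116 and 67.1 to 131 CPM. The part of these marker levels in the results that follow was not tested, and a smaller number of cells of a type cannot be told apart from less RNA per cell.

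First, tunicamycin-treated aged basal layer was compared with DMSO-treated aged basal layer, to ask which part of the machinery followed an agent that loads the ER. Genes of the Sec61 channel, TRAP and signal peptidase, 3 ERAD genes and both tested folding cofactors were called higher after tunicamycin, while none of the tested SRP genes and none of the 3 tested sensors and regulators was called. Of the 22 tested genes 12 were called higher and 0 lower in aged (Tm) against aged libraries. Of all tested genes 18.5% were called higher and 20.2% lower. Called or not, 19 of the 22 had a log2 fold change above 0 and 3 below, against 1954 and 2009 of all 3963. Their median log2 fold change was 1.29, against −0.03 over all tested genes. By role, 0 of 3 sensors and regulators, 3 of 4 ERAD genes, 2 of 2 folding cofactors and 7 of 13 translocation genes were called, and the roles were not tested against each other. Of the called genes, DERL1, selenok, sdf2l1, CRELD2, SSR4, SPCS1 and SEC11A do not pass the filter without the aged (Tm) libraries. Without the 3 smallest libraries SSR4 was the only translocation gene called. Among the 8 genes that also pass the filter without the aged (Tm) libraries, 5 were called higher, where 18.8% of all 1520 such genes were. Their median log2 fold change was 1.77, against 0.27 over all such genes.

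**Figure D1:**
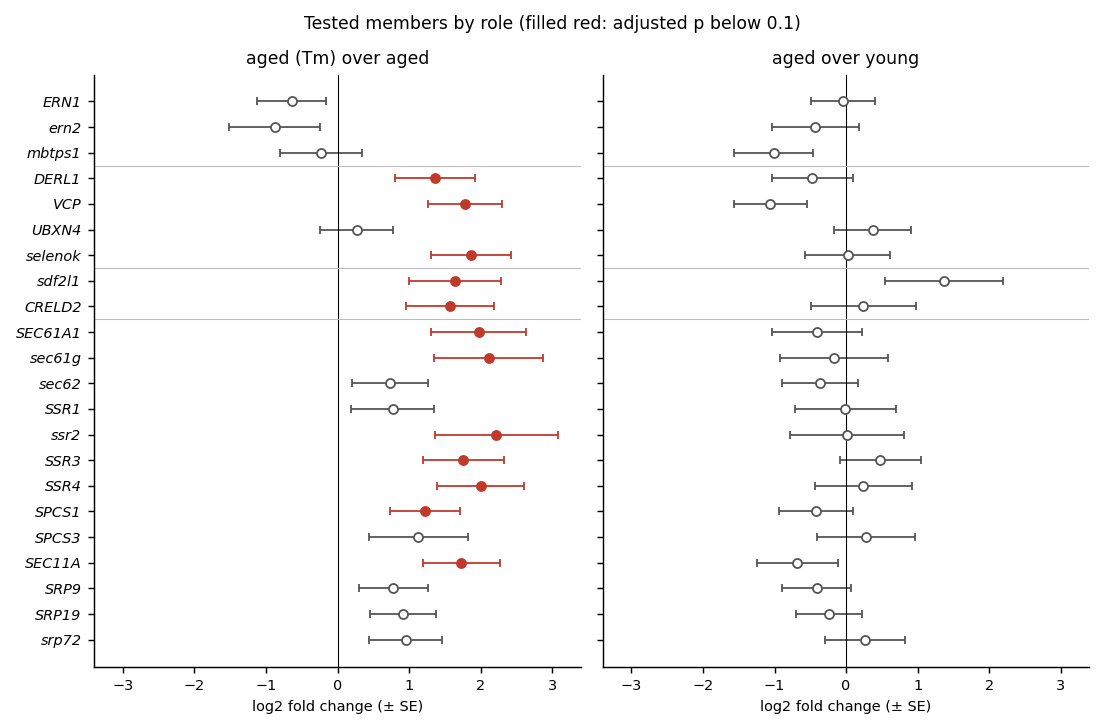
Log2 fold change (points) and standard error (bars) of the 22 tested genes, aged (Tm) over aged on the left and aged over young on the right, grouped by role from sensors at the top through ERAD and folding cofactors to translocation. Filled red points passed an adjusted p of 0.1: 12 genes on the left, all above 0, and none on the right.

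The calls depended on single libraries and on the scaling. Without aged (Tm) replicate 2 the count was 4 of 24 tested genes, all higher, where 10.9% of all genes were called higher, and in either direction 16.7% of these genes and 17% of all genes were called. Without aged replicate 4 it was 6 of 22, all higher, where 15.8% of all genes were called higher, and in either direction 27.3% of these genes and 27.4% of all genes were called. Without the 3 smallest libraries 4 of 29 tested genes were called, all higher, against 10.1% of all genes called higher in that fit. Scaling by library totals alone left 6 of 22 calls, all higher, where 9.34% of all genes were called higher (selenok, SEC61A1, sec61g, ssr2, SSR3 and SSR4), with VCP at 1.15 (adjusted p = 0.125) and SEC11A at 1.23 (adjusted p = 0.134). Upper quartile scaling gave 8 higher (the same 6 genes, VCP and SEC11A), where 10.6% of all genes were, and 1 lower (ERN1, −1.16), where 30.9% of all genes were, with a median of −0.52 over all genes. DESeq2 did not call sdf2l1 and sec61g, which had 0 counts in both shallow aged libraries (adjusted p = 0.151 and 0.153). All 12 genes called in the main comparison kept a log2 fold change above 0 in each alternative fit in which they were tested.

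Of the sensors, both IRE1 genes were measurable. ERN1, which encodes IRE1α, had 31.7, 50.1 and 43.9 CPM in aged (Tm) libraries, against 106, 79.1, 97.4 and 66.5 CPM in aged libraries. In CPM of the library total the 2 groups did not overlap, with aged (Tm) below aged. How common this was among all tested genes was not counted. These CPM leave out the TMM factors, 0.616 and 0.646 in aged (Tm) replicates 1 and 2 and 1.87 in aged replicate 1. Whether the groups separate with those factors was not examined. The fitted log2 fold change of ERN1 was −0.64 ± 0.48 (SE; edgeR adjusted p = 0.299). The sign turned in the fit without a filter on low counts (0.11 ± 0.62, SE). Without the 3 smallest libraries the value was −0.62 and not called. Under upper quartile scaling ERN1 was called lower, as were 30.9% of all genes.

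The gene ern2, which encodes IRE1β, had 20.2, 6.27 and 36.9 CPM in aged (Tm) libraries, against 79.7, 30.1, 0 and 83.2 CPM in aged libraries, and the groups overlapped. Its log2 fold change was −0.88 ± 0.64 (SE; edgeR adjusted p = 0.285). The site-1 protease gene mbtps1 had 17.3, 31.3 and 34 CPM in aged (Tm) libraries, against 79.7, 49, 19.5 and 22.2 CPM in aged libraries. These groups overlapped as well, with a log2 fold change of −0.23 ± 0.57 (SE; edgeR adjusted p = 0.762) whose sign turned in the fit without a filter (0.47) and in DESeq2 (0.19).

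XBP1, the transcription factor that IRE1 activates by splicing, was almost absent from these libraries. It had 3 counts in all 11 libraries, 1 in aged (Tm) replicate 3 and 1 each in aged replicates 3 and 4, so its level could not be compared. Its splicing cannot be read from counts per gene. For atf6 the counts were 5, 2 and 13 in aged (Tm) libraries, against 1, 7, 3 and 2 in aged libraries and 2, 1, 0 and 7 in young libraries. Its paralog ATF6B had 6, 3 and 24 counts in aged (Tm) libraries, against 2, 9, 0 and 3 in aged libraries. In the fit without a filter neither passed the threshold (log2 0.06 for atf6 and 0.63 for ATF6B, edgeR adjusted p = 1 and 0.644). The site-2 protease gene MBTPS2 had 9 counts in all libraries.

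The gene for PERK, EIF2AK3, had 6, 12 and 18 counts in aged (Tm) libraries, against 0, 2, 1 and 0 in aged libraries and 1, 0, 0 and 6 in young libraries. In CPM these are 17.3, 37.6 and 25.5 in aged (Tm) libraries, against 0, 7.53, 19.5 and 0 in aged libraries. The groups overlapped through the 1 count of aged replicate 3, in CPM that leave out the TMM factors. EIF2AK3 lay below the filter. Without any filter its fitted log2 fold change, which with so few aged counts depends on the fit, was 3.00 ± 0.85 (SE; edgeR adjusted p = 0.015). PPP1R15B, a regulatory subunit of the phosphatase that reverses the action of PERK, had 24, 14 and 27 counts in aged (Tm) libraries, against 0, 10, 1 and 3 in aged libraries, and in CPM all aged (Tm) libraries (38.3 to 69.2) were above all aged libraries (0 to 37.7). Without a filter its log2 fold change was 1.99 ± 0.64 (SE; edgeR adjusted p = 0.0432). That fit called 18 of the 57 genes, all higher, where it called 6.12% of all genes higher, and 5 of these calls were on genes below the filter (EIF2AK3, PPP1R15B, syvn1, spcs2 and SRP14).

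On the ERAD side, Vcp is the ATPase that pulls ubiquitinated proteins out of the ER membrane. VCP, on chromosome sgr18 as the table names it, had 323, 179 and 370 CPM in aged (Tm) libraries, against 106, 67.8, 175 and 111 CPM in aged libraries. All aged (Tm) libraries lay above all aged libraries, although aged (Tm) replicate 2 and aged replicate 3 were nearly level. The mean was 290 ± 99.7 CPM in aged (Tm) (SD, n = 3) and 115 ± 44.6 CPM in aged libraries (SD, n = 4). VCP was 3.43-fold higher by the fit (log2 1.78 ± 0.52, SE; edgeR adjusted p = 0.0195). The call held with each of the 11 libraries left out in turn, and the log2 fold change was 1.92 without the 3 smallest libraries.

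The gene selenok encodes an ER membrane selenoprotein that binds Derlins and Vcp in mammals. It had 127, 254 and 149 CPM in aged (Tm) libraries, against 26.6, 79.1, 39 and 66.5 CPM in aged libraries. Aged (Tm) stood above aged in every library, and the log2 fold change was 1.86 ± 0.56 (SE; edgeR adjusted p = 0.0226). Without aged (Tm) replicate 2 the adjusted p was 0.109, and without the 3 smallest libraries the gene was called at 1.49.

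DERL1 encodes Derlin-1, a channel-like protein of the ERAD complex. Its levels were 173, 144 and 129 CPM in aged (Tm) libraries, against 53.1, 102, 58.5 and 61 CPM in aged libraries. All aged (Tm) libraries were above all aged ones, with a log2 fold change of 1.36 ± 0.56 (SE; edgeR adjusted p = 0.0691). The call was lost without aged (Tm) replicate 1 (adjusted p = 0.181) or 2 (0.136) and without aged replicate 1 (0.108), 3 (0.128) or 4 (0.127). Without the 3 smallest libraries it was 1.06 and not called. UBXN4, which holds Vcp at the ER membrane in mammals, had a log2 fold change of 0.27 ± 0.51 (SE; edgeR adjusted p = 0.694).

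Most other ERAD genes gave few counts. The ligase gene syvn1 had 13, 18 and 30 counts in aged (Tm) libraries, against 1, 5, 2 and 2 in aged libraries, with overlapping CPM (37.5 to 56.4 in aged (Tm), 11.1 to 39 in aged libraries) and a log2 fold change of 2.18 ± 0.67 in the fit without a filter (SE; edgeR adjusted p = 0.0299). SEL1L, its partner, had 0, 3 and 6 counts in aged (Tm) libraries, against 3, 0, 0 and 4 in aged libraries. HERPUD1, a membrane scaffold of the same complex and a common UPR marker, had 0, 0 and 2 counts in aged (Tm) libraries, against 1, 0, 0 and 2 in aged libraries. EDEM1, a mannosidase-like protein that marks glycoproteins for disposal, had 0, 1 and 1 counts in aged (Tm) libraries, against 0, 2, 0 and 2 in aged libraries. With so few counts no difference was detectable for SEL1L, HERPUD1 and EDEM1, which are UPR targets in mammals. The other 11 ERAD genes below the filter had 10 to 90 counts over all libraries. Among all 35 genes below the filter, 31 overlapped in CPM between aged (Tm) and aged libraries. PPP1R15B had every aged (Tm) library above every aged library, as did 2.13% of all genes below the filter. In 3 genes every aged (Tm) library was below every aged library, as in 9.06% of all such genes: os9 (a lectin that delivers glycoproteins to ERAD), selenos (a selenoprotein that binds Vcp in mammals) and SEC63 (a partner of the Sec61 channel). For os9 the levels were 14.4, 6.27 and 17 CPM in aged (Tm) libraries, against 133, 26.4, 19.5 and 38.8 CPM in aged libraries. The gene selenos had 0, 0 and 4.25 CPM in aged (Tm) libraries, against 79.7, 15.1, 19.5 and 5.55 CPM in aged libraries, from 12 counts in these 7 libraries. None of these 3 was called in the fit without a filter (edgeR adjusted p = 0.663 for os9, 0.292 for selenos and 0.528 for SEC63).

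Both tested folding cofactors rose, and neither passes the filter without the aged (Tm) libraries. The gene sdf2l1 encodes a partner of the chaperone BiP. It had 77.8, 94 and 106 CPM in aged (Tm) libraries, against 0, 71.6, 0 and 16.6 CPM in aged libraries. All aged (Tm) libraries were higher, and the 2 aged libraries at 0 are the shallow ones, where 3 counts would be 79.7 and 58.5 CPM. The log2 fold change was 1.64 ± 0.64 (SE; edgeR adjusted p = 0.0582). The call was lost without aged (Tm) replicate 1 (adjusted p = 0.114) or 2 (0.132) and without aged replicate 3 (0.107) or 4 (0.135), the value was 3.27 without aged replicate 2, and 1.15 without the 3 smallest libraries, where it was not called.

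CRELD2, an ER protein with disulfide isomerase-like activity in mammals, had 37.5, 81.4 and 109 CPM in aged (Tm) libraries, against 53.1, 22.6, 97.4 and 5.55 CPM in aged libraries. The groups overlapped in CPM, through the 2 shallow aged libraries. Its log2 fold change was 1.57 ± 0.62 (SE; edgeR adjusted p = 0.0599), and 2.43 (adjusted p = 0.025) without the 3 smallest libraries. The call was lost without aged (Tm) replicate 2 (adjusted p = 0.139), aged replicate 2 (0.238) or aged replicate 4 (0.133). The table holds 2 genes named DNAJB9, an ER cochaperone gene induced by Xbp1 in mammals, with means of 3.78 and 0 CPM in aged (Tm), against 8.03 and 0 CPM in aged libraries. MANF, a secreted ER protein, had a mean of 3.41 ± 3.55 CPM in aged (Tm) (SD, n = 3) and 6.64 ± 13.3 CPM in aged libraries (SD, n = 4), from 7 counts in all. The other cofactor genes below the filter, dnajc3a, SIL1 and ero1b, had 19, 45 and 33 counts over all libraries.

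**Figure D2:**
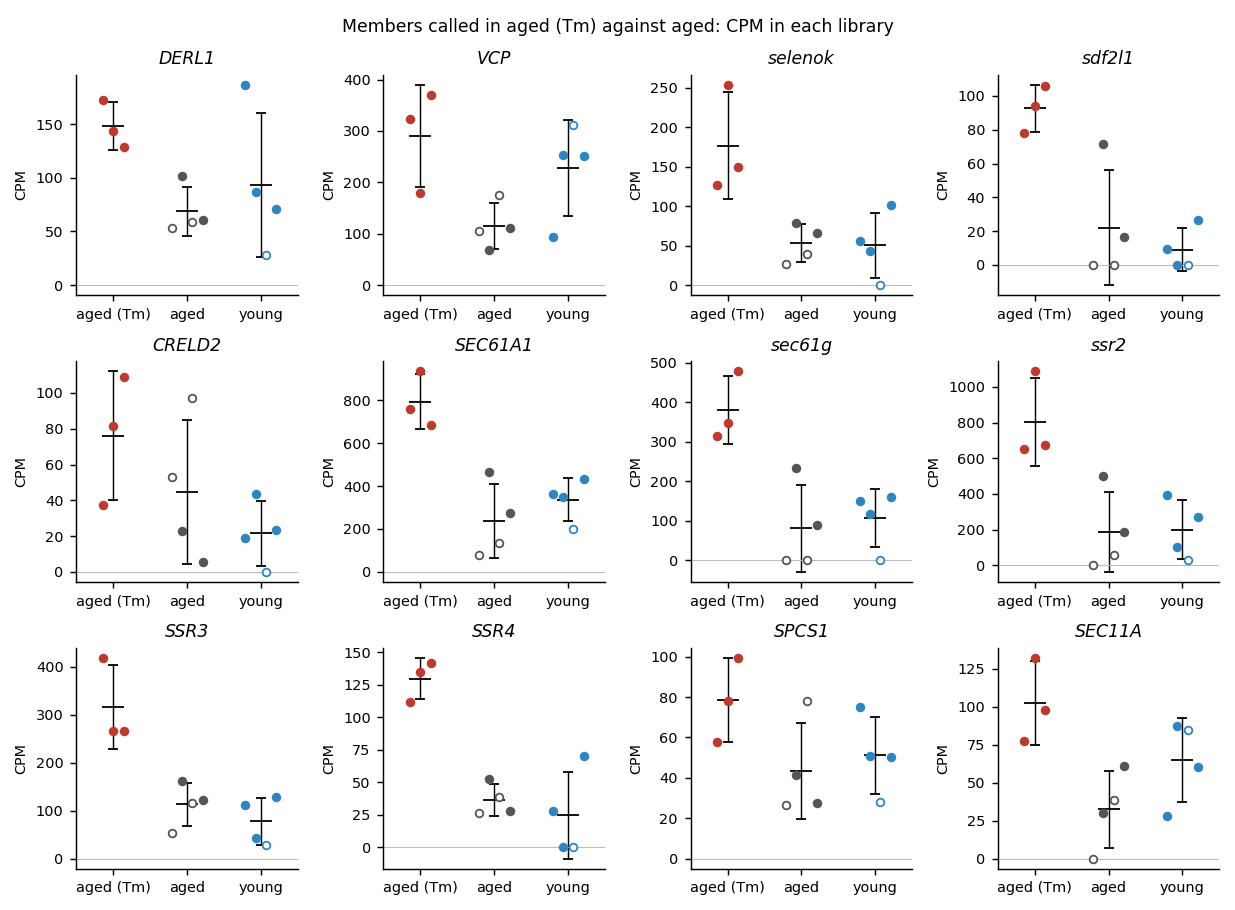
CPM of the 12 genes called in aged (Tm) against aged, in each aged (Tm), aged and young library, with the mean and SD as bars and open symbols for the 3 libraries with fewer than 60000 counts. Aged (Tm) points lie above all aged points for 10 of the genes, the exceptions being CRELD2 and SPCS1, and aged replicate 2 is the highest aged point for the Sec61 and TRAP genes shown.

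The 21 translocation genes together made 3182, 3816 and 3565 CPM in aged (Tm) libraries, against 956, 2249, 1247 and 1337 CPM in aged libraries and 1759, 1294, 1131 and 1889 CPM in young libraries. The aged (Tm) libraries stood above all others. All 13 tested translocation genes had a log2 fold change above 0, with a range of 0.73 to 2.22. Over all tested genes, 1954 of 3963 were above 0. Of these 13, SSR1, SSR4, SPCS1, SPCS3, SEC11A and srp72 did not pass the filter without the aged (Tm) libraries. Among the untested ones, SEC63 (−0.88) and the second SEC61A1 entry (ENSNFUG00015016424, −0.80) were below 0 in the fit without a filter. In that fit sec61b, spcs2, SRP14, srp54, SRP68 and TRAM1 were above 0. The sensors and regulators summed to 187, 185 and 234 CPM in aged (Tm) libraries, against 372, 271, 234 and 222 CPM in aged libraries. The ERAD genes summed to 810, 849 and 982 CPM in aged (Tm) libraries, against 1062, 501, 624 and 555 CPM in aged libraries, and aged replicate 1, at 37655 counts, was the highest of all.

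**Figure D3:**
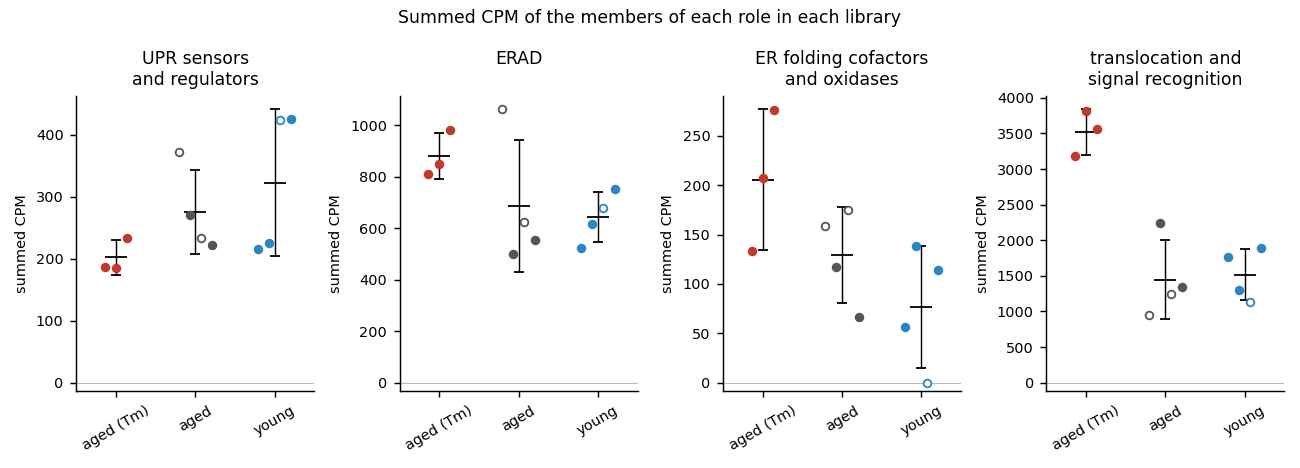
Summed CPM of the genes of each role in each aged (Tm), aged and young library, with the mean and SD as bars and open symbols for the 3 libraries with fewer than 60000 counts. Translocation is the role in which all aged (Tm) libraries (3182 to 3816 CPM) lie above all aged (956 to 2249 CPM) and all young libraries (1131 to 1889 CPM).

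The Sec61 channel is a trimer of α, β and γ subunits. The well measured copy of SEC61A1 (ENSNFUG00015005158, chromosome sgr10), for the pore-forming α subunit, had 758, 934 and 685 CPM in aged (Tm) libraries, against 79.7, 467, 136 and 272 CPM in aged libraries. The groups did not overlap, and within the aged group the 2 deeper libraries were the higher ones. The log2 fold change was 1.97 ± 0.66 (SE; edgeR adjusted p = 0.035), with an adjusted p of 0.116 without aged (Tm) replicate 2. Without the 3 smallest libraries it was 1.32 (adjusted p = 0.135). The other copy (ENSNFUG00015016424) had 0, 6.27 and 11.3 CPM in aged (Tm) libraries, against 79.7, 11.3, 39 and 16.6 CPM in aged libraries, and how the counting treats sequence shared by these 2 copies was not tested.

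For the γ subunit, sec61g had 314, 348 and 478 CPM in aged (Tm) libraries, against 0, 234, 0 and 88.7 CPM in aged libraries. Again no overlap was seen, and the 2 zeros came from the shallow aged libraries. The log2 fold change was 2.11 ± 0.76 (SE; edgeR adjusted p = 0.0441), and 1.36 (adjusted p = 0.112) without the 3 smallest libraries. Without aged replicate 2 it was 3.18, and without aged (Tm) replicate 2 or aged replicate 4 the adjusted p was 0.107. The β subunit gene sec61b had a mean of 4.55 ± 4.71 CPM in aged (Tm) (SD, n = 3) and 11.6 ± 18.6 CPM in aged libraries (SD, n = 4), from 10 counts in all. The gene sec62, for a partner of the channel in post-translational import, had a log2 fold change of 0.73 ± 0.53 (SE; edgeR adjusted p = 0.289).

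Of the 4 TRAP subunits 3 were called higher. The gene ssr2 had 651, 1087 and 673 CPM in aged (Tm) libraries, against 0, 501, 58.5 and 189 CPM in aged libraries. There was no overlap, and aged replicate 2 came closest to the aged (Tm) libraries. The log2 fold change was 2.22 ± 0.86 (SE; edgeR adjusted p = 0.056), 3.22 without aged replicate 2 and 1.41 (adjusted p = 0.15) without the 3 smallest libraries. The call was lost without aged (Tm) replicate 1 (adjusted p = 0.113) or 2 (0.171) and without aged replicate 3 (0.125) or 4 (0.124).

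SSR3 had 418, 266 and 266 CPM in aged (Tm) libraries, against 53.1, 162, 117 and 122 CPM in aged libraries. Even the highest aged library was below the lowest aged (Tm) library, with a log2 fold change of 1.76 ± 0.56 (SE; edgeR adjusted p = 0.0285), an adjusted p of 0.116 without aged (Tm) replicate 1, and 1.39 (adjusted p = 0.113) without the 3 smallest libraries. SSR4 had 112, 135 and 142 CPM in aged (Tm) libraries, against 26.6, 52.7, 39 and 27.7 CPM in aged libraries. The mean was 130 ± 15.3 CPM in aged (Tm) (SD, n = 3) and 36.5 ± 12.2 CPM in aged libraries (SD, n = 4). SSR4 was 4-fold higher by the fit (log2 2.0 ± 0.61, SE; edgeR adjusted p = 0.0226), and its call held with each of the 11 libraries left out in turn and without the 3 smallest (1.82, adjusted p = 0.0719). SSR1 had a log2 fold change of 0.77 ± 0.58 (SE; edgeR adjusted p = 0.306).

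Signal peptidase has a catalytic subunit, encoded by SEC11A, and accessory subunits encoded by the SPCS genes. SEC11A had 77.8, 132 and 97.8 CPM in aged (Tm) libraries, against 0, 30.1, 39 and 61 CPM in aged libraries. The groups did not overlap, and the log2 fold change was 1.73 ± 0.54 (SE; edgeR adjusted p = 0.0258). The call held with each of the 11 libraries left out in turn, although without the 3 smallest libraries it was 1.43 (adjusted p = 0.107).

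SPCS1 had 57.6, 78.3 and 99.2 CPM in aged (Tm) libraries, against 26.6, 41.4, 77.9 and 27.7 CPM in aged libraries. The groups overlapped through aged replicate 3, and the log2 fold change was 1.22 ± 0.49 (SE; edgeR adjusted p = 0.0635). The call was lost without aged (Tm) replicate 2 (adjusted p = 0.127), aged replicate 2 (0.141) or aged replicate 4 (0.126). SPCS3 had 254, 288 and 269 CPM in aged (Tm) libraries, against 26.6, 373, 19.5 and 77.6 CPM in aged libraries. Aged replicate 2 was the highest of these 7 libraries, and the gene was not called (log2 1.13 ± 0.69, SE; edgeR adjusted p = 0.205).

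None of the 3 tested SRP subunits was called against aged libraries, with log2 fold changes of 0.78 ± 0.48 for SRP9, 0.92 ± 0.46 for SRP19 and 0.95 ± 0.51 for srp72 (SE; edgeR adjusted p = 0.216, 0.128 and 0.152). SRP14 lay below the filter and had 18, 9 and 49 counts in aged (Tm) libraries, against 0, 4, 2 and 5 in aged libraries, with overlapping CPM and a log2 fold change of 2.19 ± 0.65 in the fit without a filter (SE; edgeR adjusted p = 0.023). SRP68 and TRAM1 had 19 and 55 counts over all libraries. SEC63 had 11.5, 0 and 17 CPM in aged (Tm) libraries, against 159, 18.8, 58.5 and 22.2 CPM in aged libraries. The gene srp54, for the GTPase that binds signal sequences, averaged 9.98 ± 9.31 CPM in aged (Tm) (SD, n = 3) and 9.53 ± 8.09 CPM in aged libraries (SD, n = 4). Whether the SRP genes and the Sec61 and TRAP genes differed in their change was not tested.

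**Figure D4:**
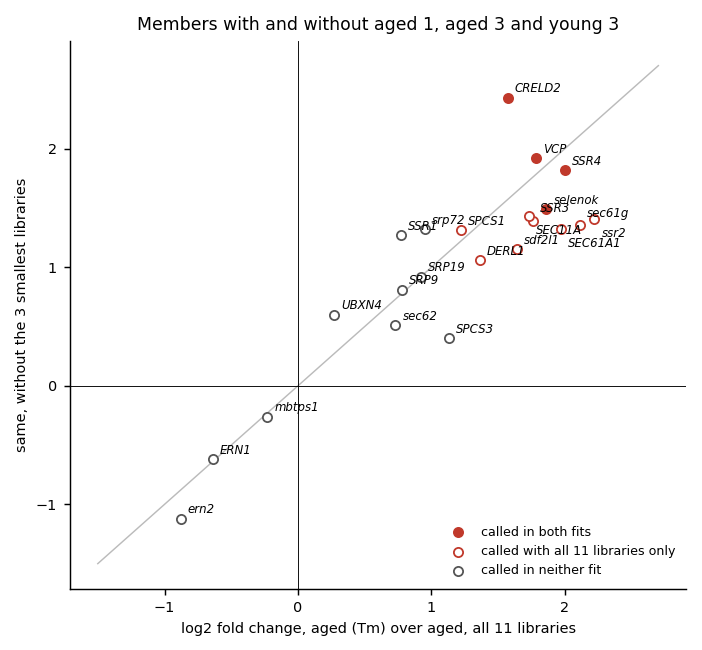
Log2 fold change, aged (Tm) over aged, of the 22 tested genes in the fit with all 11 libraries (horizontal) and without aged replicates 1 and 3 and young replicate 3 (vertical), with the line of equal values. The 4 filled points (VCP, selenok, CRELD2 and SSR4) were called in both fits, the 8 open red points only with all libraries, and all 12 stayed above 0 in both.

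In CPM of the library total, 10 of the 22 tested genes had all aged (Tm) libraries above all aged libraries, where 16.8% of all tested genes did. ERN1 had all of them below, and the share of all tested genes that did so was not counted. Genes of the same pathway that are not part of this machinery gave the following counts in the same fit. All 6 tested of 10 ER chaperone and isomerase genes were called higher, where 18.5% of all tested genes were. Of these, HSP90B1 and P4HB also pass the filter without the aged (Tm) libraries, while hspa5, HYOU1, DNAJB11 and pdia6 do not. In the fit without a filter PDIA4 was called higher, whereas calr, CANX and PDIA3 were not (edgeR adjusted p = 0.0732, 0.285, 0.941 and 0.29). The gene hspa5, which encodes BiP, had 459 ± 32.8 CPM in aged (Tm) (SD, n = 3) and 101 ± 53.9 CPM in aged libraries (SD, n = 4; log2 2.76 ± 0.55, SE; edgeR adjusted p = 0.00261). Of the PERK and ATF4 outputs 2 of 9 genes could be tested and both rose, atf3 by 1.38 and the glutathione-degrading enzyme gene CHAC1 (ENSNFUG00015002384) by 4.77 on the log2 scale. CHAC1 passes the filter without the aged (Tm) libraries and atf3 does not. Without the 3 smallest libraries atf3 was at 1.10 and not called (edgeR adjusted p = 0.232). Of 9 oligosaccharyltransferase genes, which encode the enzyme that tunicamycin deprives of its substrate, 3 were tested and 1 was called higher. It was the subunit gene dad1 (log2 1.92 ± 0.71, SE; edgeR adjusted p = 0.0486). It does not pass the filter without the aged (Tm) libraries. Without the 3 smallest libraries dad1 was at 1.57 and not called (edgeR adjusted p = 0.12).

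Next, aged and young basal layer, both in DMSO, were compared, to ask whether the machinery changed with age. No tested gene was called: 0 of 22, where 0.707% of all tested genes were called in either direction. The count at an unadjusted p below 0.05 was 1, and DESeq2 and limma voom also called 0. The median log2 fold change of the 22 genes was −0.10, against 0.05 over all tested genes, and no tested gene had groups that did not overlap in CPM, where 3.66% of all tested genes did.

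The gene with the unadjusted p below 0.05 was VCP. It had 106, 67.8, 175 and 111 CPM in aged libraries, against 93.6, 254, 311 and 252 CPM in young libraries. The young libraries were higher except for young replicate 1, and the log2 fold change was −1.06 ± 0.51 (SE; edgeR adjusted p = 0.8). For mbtps1 the levels were 79.7, 49, 19.5 and 22.2 CPM in aged libraries, against 65.5, 43.6, 198 and 77.2 CPM in young libraries, with a log2 fold change of −1.01 ± 0.55 (SE; edgeR adjusted p = 0.882). The gene sdf2l1 had 0, 71.6, 0 and 16.6 CPM in aged libraries, against 9.36, 0, 0 and 26.8 CPM in young libraries, with a log2 fold change of 1.37 ± 0.82 (SE; edgeR adjusted p = 0.929) that became −0.37 without aged replicate 2.

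ERN1 and the ERAD and translocation genes overlapped between the ages. ERN1 had 106, 79.1, 97.4 and 66.5 CPM in aged libraries, against 65.5, 50.9, 56.6 and 134 CPM in young libraries. SEC61A1 (ENSNFUG00015005158) had 79.7, 467, 136 and 272 CPM in aged libraries, against 365, 349, 198 and 433 CPM in young libraries. DERL1 had 53.1, 102, 58.5 and 61 CPM in aged libraries, against 187, 87.2, 28.3 and 70.5 CPM in young libraries. The standard errors of the 22 log2 fold changes, calculated back from the test, ran from 0.45 to 0.82. Differences within these errors were not detectable in these libraries. Larger differences could be missed as well, since VCP (−1.06 ± 0.51, SE) and mbtps1 (−1.01 ± 0.55, SE) were not called.

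Last, aged (Tm) was compared with young basal layer. This comparison shares the aged (Tm) libraries with the first and the young libraries with the second, so it is not independent of them. Of the 22 tested genes 9 were called higher and 1 lower, where 15.9% of all tested genes were called higher and 13.2% lower. The median log2 fold change was 0.97, against −0.10 over all tested genes. The 9 were selenok, sdf2l1, CRELD2, SEC61A1, sec61g, ssr2, SSR3, SSR4 and srp72, of which 8 were also called against aged libraries. The split moved with the scaling, with 5 higher and 3 lower (ERN1, ern2 and mbtps1) under upper quartile scaling, where 10.2% of all genes were called higher and 22.9% lower, and 11 higher and 0 lower with relative log expression (RLE) size factors, where 21.9% were called higher. With 1 library left out, all calls in the following fits were higher. The count was 5 of 24 without aged (Tm) replicate 1 (7.96% of all genes called higher) and 3 of 24 without aged (Tm) replicate 2 (9.37%). It was 5 of 23 without young replicate 2 (8.95%), 5 of 23 without young replicate 3 (12.7%) and 4 of 20 without young replicate 4 (17.1%). In either direction, 12.5% of these genes and 13.7% of all genes were called without aged (Tm) replicate 2. The shares were 20.8% and 11.8% without aged (Tm) replicate 1, and 21.7% and 14.9% without young replicate 2. Without young replicate 3 they were 21.7% and 23.4%, and without young replicate 4 they were 20% and 26.5%.

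The gene sdf2l1 had the largest of these changes, with 77.8, 94 and 106 CPM in aged (Tm) libraries, against 9.36, 0, 0 and 26.8 CPM in young libraries. The groups did not overlap, and how common this was among all tested genes was not counted for aged (Tm) and young libraries. The log2 fold change was 3.00 ± 0.74 (SE; edgeR adjusted p = 0.00783), a call that held with each library left out, as did those of SSR3 and SSR4, although the value was 4.75 without young replicate 4. SSR3 had 418, 266 and 266 CPM in aged (Tm) libraries, against 112, 43.6, 28.3 and 128 CPM in young libraries (log2 2.24 ± 0.58, SE; edgeR adjusted p = 0.0108). SSR4 had 112, 135 and 142 CPM in aged (Tm) libraries, against 28.1, 0, 0 and 70.5 CPM in young libraries (log2 2.24 ± 0.60, SE; edgeR adjusted p = 0.0137), and its value was 3.78 without young replicate 4.

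The other 6 genes called higher were less stable. The log2 fold change was 1.88 ± 0.56 for selenok and 1.81 ± 0.61 for CRELD2 (SE; edgeR adjusted p = 0.0232 and 0.0402), and both calls were lost without aged (Tm) replicate 2 (adjusted p = 0.128 and 0.115), that of CRELD2 also without young replicate 4 (0.114). SEC61A1 (1.56 ± 0.66, SE), sec61g (1.94 ± 0.76, SE) and ssr2 (2.24 ± 0.86, SE) were called at edgeR adjusted p = 0.0954, 0.0735 and 0.0692. Each of these 3 calls was lost in 5 of the 11 fits that leave out 1 library, namely without aged (Tm) replicates 1 or 2 and without young replicates 2, 3 or 4, with adjusted p of 0.1 to 0.254. The call of srp72 (1.22 ± 0.50, SE; edgeR adjusted p = 0.0874) was lost in 6 of the 10 such fits that tested it, without aged (Tm) replicate 1 (adjusted p = 0.138) or 2 (0.109), aged replicate 2 (0.12) and young replicates 1 (0.106), 2 (0.244) or 3 (0.149).

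Of the genes called higher against aged libraries, VCP, DERL1, SPCS1 and SEC11A were not called against young libraries. For VCP the log2 fold change was 0.72 ± 0.50 (SE; edgeR adjusted p = 0.28), with 323, 179 and 370 CPM in aged (Tm) libraries, against 93.6, 254, 311 and 252 CPM in young libraries, which overlapped. The 1 gene called lower was mbtps1, with 17.3, 31.3 and 34 CPM in aged (Tm) libraries, against 65.5, 43.6, 198 and 77.2 CPM in young libraries. In CPM of the library total those groups did not overlap, and how common this was among all tested genes was not counted. These CPM leave out the TMM factors, such as 0.646 in aged (Tm) replicate 2 and 1.04 in young replicate 2. Whether the groups separate with the factors was not examined. The log2 fold change was −1.24 ± 0.53 (SE; edgeR adjusted p = 0.0991), and the call was lost in 10 of the 11 fits that leave out 1 library (adjusted p of 0.102 to 0.322), the exception being the fit without aged replicate 2 (0.0766). The remaining sensors, ERN1 (−0.68 ± 0.47, SE; edgeR adjusted p = 0.279) and ern2 (−1.31 ± 0.62, SE; edgeR adjusted p = 0.129), were not called.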

How the data were processed

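The deposited table holds whole UMI counts per gene without normalization. The authors separated reads by sample barcode, mapped them and assigned UMIs to genes, and the submitters' processing notes name UMI-tools 1.0.0, HISAT2 2.1.0 and featureCounts 1.6.4. The genome build and annotation are not given in the sources used here. Columns were assigned to groups by their names. For this report the counts of all 11 libraries were fitted together in edgeR 4.0.16 (R 4.3.3) with TMM factors, after its filter filterByExpr by group, and tested two-sided by quasi-likelihood. DESeq2 1.42.0 and limma 3.58.1 (voom) were alternatives. The threshold of 0.1 is that of a figure legend of the study. CPM are counts per 1000000 counts of the library. Other alternatives were RLE, upper quartile and total scaling, 2 other filters, only the 2 groups compared, thinning to 35366 counts, a block for the replicate number, each library left out in turn, and thresholds of 0.05 and 0.5. Leaving out the 3 smallest libraries was chosen after seeing the data. Named genes were those called in any comparison, and a fixed set of sensors, ERAD, cofactor and translocation genes, given by counts where untested; genes outside this rule (PPP1R15B, UBXN4, MANF, sec62, SSR1, SPCS3, SRP9, SRP14, SRP19, ATF6B, os9, selenos, SEC63 and those given only as total counts) were named after their values were seen. The genes and lists were chosen with earlier results of these data known. Figures were drawn with matplotlib 3.10.9.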

Additional observations from a re-analysis of the deposited data

Results flagged for a closer look

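Of 40 groups of 4 libraries examined, 3 (CPM of named tested genes and of the 4 role sums, in aged and young libraries) held 1 library far from the others by Dixon's ratio of gap to range, whose 95% critical value for 4 libraries is 0.829, and chance flags about 1 in 20 groups. DERL1 was 102 CPM in aged replicate 2, against 53.1, 58.5 and 61 CPM in the other aged libraries (ratio 0.838). The gene srp72 was 159 CPM, from 6 counts, in aged replicate 1, against 30.1, 39 and 44.4 CPM in the other aged libraries (ratio 0.89). It was 70.5 CPM in young replicate 4, against 21.8, 28.1 and 28.3 CPM in the other young libraries (ratio 0.867).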

How the results depend on the processing

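In aged (Tm) against aged libraries 12 of 22 genes were called (38.7% of all genes, in either direction as for the shares that follow). The count was 7 at an adjusted p below 0.05 (26.3% of all genes), 20 below 0.5 (18 higher; 77.3%), 6 with library totals alone (35.2%) and 0 of 3 tested after thinning to 35366 counts, which leaves 609 genes to test (23%). It was 4 of 29 without the 3 smallest libraries (15.4%) and 4 to 14 with 1 library left out. Other settings gave 9 to 18, the highest being 18 of 57 genes in DESeq2 (9.96%) and with no filter (6.87%). DESeq2 counts here and below are over all genes, including any that its own filter left without an adjusted p. Against young libraries 10 of 22 were called (29.1%), and the count was 5 below 0.05 (18.7%), 20 below 0.5 (17 higher; 73%), 6 with library totals alone (20.7%), 16 of 57 with DESeq2 (7.77%), 5 with limma voom (27.8%), 0 of 3 after thinning (29.4%), 10 of 29 without the 3 smallest libraries (27.8%) and 3 to 14 with 1 library left out. In aged against young libraries it was 0 in every setting run. With the replicate number as a block the counts were 9 (41.4%), 0 and 9 (31%). Deviations of same-numbered libraries had correlations from −0.509 to 0.376, and those of other libraries from −0.559 to 0.615. The numbers were not taken as pairs. Same-numbered libraries also differed in depth, so this check cannot exclude pairs. Signs turned for mbtps1, aged (Tm) against aged, with no filter (0.47), DESeq2 (0.19) and with 1 library left out (0.02 and 0.08), for ERN1 with no filter (0.11), for VCP against young after thinning (−0.32) and for sdf2l1, aged against young, without aged replicate 2 (−0.37, with a range up to 3.14 over the libraries left out). Among the 16 named tested genes, aged against young, 18 and 23 values turned sign in other settings and with 1 library left out, none past the threshold. The cause was not tested. Few counts limit most of the rest: 35 of the 57 genes were below the filter, 17 of them with fewer than 30 counts in all libraries. Why their counts were low was not tested.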
